A study of Mus musculus with 2 samples.

Results

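The forkhead genes encode the Fox transcription factors, which share a DNA-binding domain and are named by lettered subfamilies. They were taken as the probe sets whose single gene symbol begins with Fox, a letter from a to s and a digit, which gave 82 probe sets of 37 genes out of 18193 genes with a symbol of their own on the array. Of the 37 genes, 36 encode transcription factors and 1, Foxl2os, is a non-coding transcript beside Foxl2. Another family gene is not analysed here. RNA came from vascular cells isolated by flow sorting out of right lung lobes, from old C57BL/6J mice and from young C57BL/6J mice, in both cases after resection of the left lobe, with 1 Affymetrix array for each age. Not given in the sources used here are the ages, the time after surgery, how cells were gated and how many mice were pooled, and unoperated lungs were not analysed here. With 1 array per age no difference has a replicate check and no test was possible, so the number of arrays limits the precision of every value and genes are described by a fixed size rule of 2-fold.

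Many forkhead factors bind DNA sites built around the core TGTTTA. In endothelium Foxo1 is known for holding cells in quiescence, and Foxf1 for the development and repair of lung capillaries. FoxO proteins are phosphorylated by Akt after insulin or growth factor signals and then leave the nucleus, while Foxm1 drives genes of cell division and FoxP proteins act mostly as repressors.

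Signals are scaled MAS5 intensities, and values under the floor of 73.7 signal units have no order. All log2 ratios are old minus young, and a fold against an array below the floor takes the floor as that array's value, so it can only be too small. Of the 37 genes, 19 were above the floor on at least 1 array by their leading probe set, the one with the highest mean signal. Among these 19, 5 were lower on the old array by 2-fold or more and 0 were higher. They were Foxp1, Foxp2 and Foxp4 of the FoxP subfamily and Foxo3 and Foxo4 of the FoxO subfamily. Over all 12105 genes measured in the same way, 16.0% were higher on the old array by 2-fold or more and 11.3% were higher on the young. The forkhead genes stood at 0% and 26.3%. These shares depended on the setting. By the mean over probe sets, 2 of 19 forkhead genes (10.5%) were higher on the young array, against 10.6% of all genes. With the floor at the 25th percentile of signal, 6 of 30 forkhead genes (20%) were higher on the old array, against 18.7% of all genes, and 6 of 30 were higher on the young, against 11.2%. The median log2 ratio of the 19 forkhead genes was -0.12, against 0.03 over all measured genes, and -0.33 over the 15 forkhead genes above the floor on both arrays. It was 0.15 with the floor at the 25th percentile, opposite in sign.

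Counted by probe set, 49 of the 82 were above the floor on at least 1 array. Of these 49, 14 were lower on the old array by 2-fold or more (28.6%) and 0 were higher. Over all 24354 probe sets above the floor 14.2% were higher on the old array by 2-fold or more and 10.3% were higher on the young. The 14 probe sets came from Foxp1, Foxp2, Foxp4, Foxo3, Foxo4 and Foxc1, so probe sets of the same gene repeat one measurement.

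**Figure D1:**
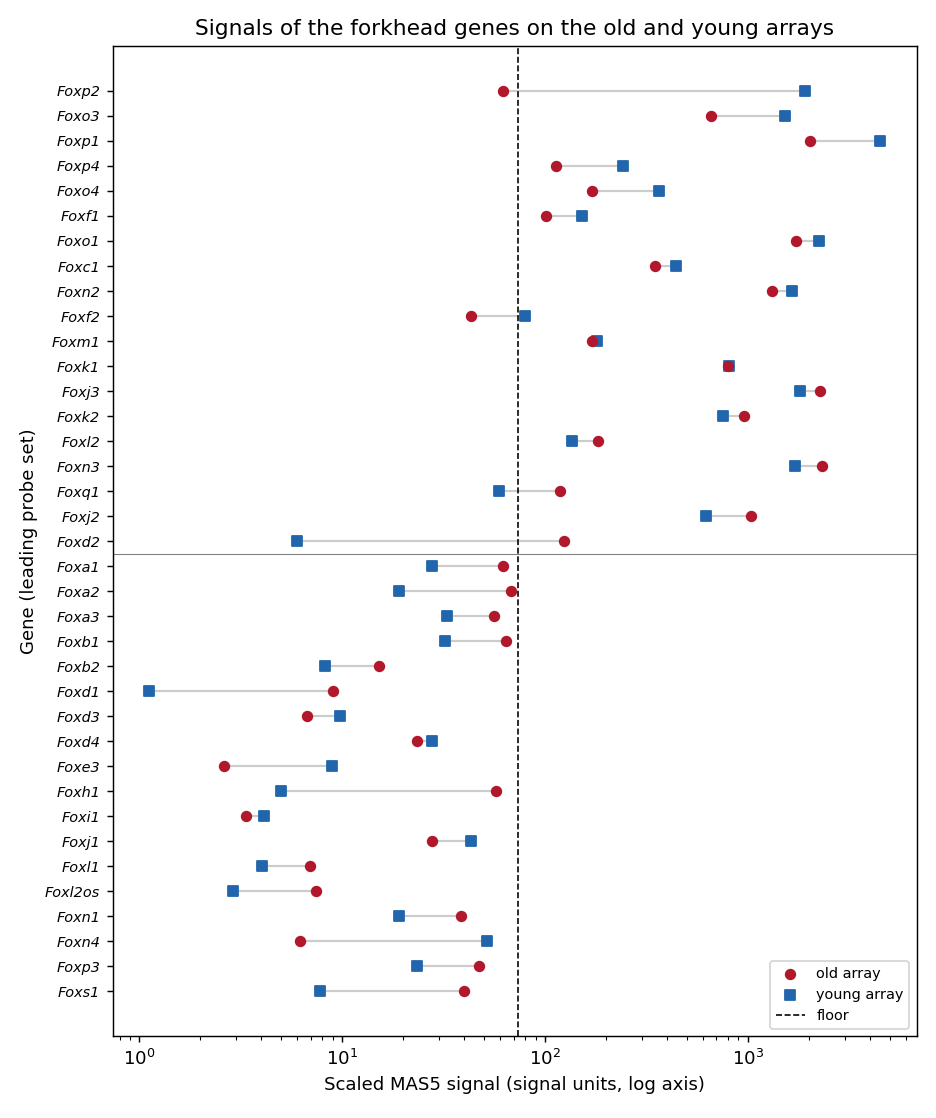
Scaled signal (log axis) of the leading probe set of each of the 37 forkhead genes on the old array (circles) and the young array (squares), with the floor of 73.7 as a dashed line. Above the horizontal line stand the 19 genes over the floor on at least 1 array, ordered by ratio, with Foxp2 at the top; the 18 genes below it were under the floor on both.

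The sequences shown first are the annotated upstream stretches of Foxp1, the measured FoxP gene with the most probe sets, because each of its 3 starts has the forkhead core in the 250 bases before it. The core was searched as TGTTTA on both strands, so that TAAACA is the same match read on the other strand, and it is written in capitals. Sequences are from RefSeq, build GRCm38.p6, minus strand, at chr6:99520994-99521243, chr6:99266516-99266765 and chr6:99028299-99028548, in that order.
Foxp1 start 1: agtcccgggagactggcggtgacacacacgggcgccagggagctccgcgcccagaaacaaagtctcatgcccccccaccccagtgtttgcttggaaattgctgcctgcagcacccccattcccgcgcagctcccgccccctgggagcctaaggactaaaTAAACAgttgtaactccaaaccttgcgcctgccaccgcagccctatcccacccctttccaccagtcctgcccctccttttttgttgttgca
Foxp1 start 2: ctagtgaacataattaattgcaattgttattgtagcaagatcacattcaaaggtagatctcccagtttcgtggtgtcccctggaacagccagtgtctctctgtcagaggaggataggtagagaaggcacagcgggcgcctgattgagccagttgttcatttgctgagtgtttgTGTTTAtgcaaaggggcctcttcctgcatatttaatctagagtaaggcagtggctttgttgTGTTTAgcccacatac
Foxp1 start 3: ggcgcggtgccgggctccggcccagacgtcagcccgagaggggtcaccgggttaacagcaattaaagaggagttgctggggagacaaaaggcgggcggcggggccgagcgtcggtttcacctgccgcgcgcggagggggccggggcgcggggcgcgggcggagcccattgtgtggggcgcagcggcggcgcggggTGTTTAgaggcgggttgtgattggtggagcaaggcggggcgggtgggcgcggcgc

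The matches lay 91 bases, 77 and 16 bases, and 55 bases before the starts. Among all 32851 promoters of the same length in the table, 12.0% held the core. Promoters were matched for 25 of the 37 forkhead genes, and 5 of their 30 promoters held it (16.7%), 3 of them those of Foxp1 and the others one each of Foxa1 and Foxp3. Counted by gene, 3 of 25 forkhead genes (12.0%) held it, against 13.5% of all 27025 genes, and the full site TGTTTAC stood in 1 of the 30 promoters (3.33%), against 3.17% of all. The 3 stretches differ in composition, with 60.8%, 45.2% and 74% G and C and 11, 3 and 34 CpG pairs. The arrays do not tell which start was used, and a match describes the letters only.

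Foxp2, known in collecting lymphatic vessels as well as in lung epithelium and the nervous system, had the largest difference of the family. Its leading probe set read 62.0 on the old array, below the floor, against 1917 on the young, and was at least 26.0-fold lower on the old array (log2 ratio -4.70). Of all measured genes, 33 had a ratio further toward the young side, a rank that takes bounds at their value. The next brightest pair had 53.7 and 52.1 on the old array, against 1453 and 1051 on the young, which is at least 19.7-fold lower on the old array for one and at least 14.3-fold for the other. Another had 7.25 on the old array and 306 on the young, and was at least 4.16-fold lower on the old. A probe set near the floor had 33.9 on the old array and 93.3 on the young, and the last was below the floor on both. All 6 probe sets of Foxp2 were thus below the floor on the old array, and 5 were above it on the young. These 5 could be read only through the young array, so their shared sign is no separate check. With the floor at the 75th percentile the log2 ratio was -1.97, since the old value is then set to the higher floor.

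Lymphatic endothelial markers moved in the same direction as Foxp2. Of 7 measured lymphatic markers, 5 were lower on the old array by 2-fold or more (71.4%) and 0 were higher. Over all genes 11.3% were lower and 16.0% higher. The median log2 ratio of the markers was -5.23, and their summed signal was 35086 on the old array and 64662 on the young. The median was -3.04 with the floor at the 75th percentile and -3.59 by the mean over probe sets. Prox1, the transcription factor of lymphatic identity, had 60.6 on the old array and 6885 on the young. The neuropeptide gene Nts had 27.2 and the matrix gene Mmrn1 74.6 on the old array, against 10414 and 10039 on the young, although a second Mmrn1 probe set was at -0.11 in log2 ratio. Lyve1 and Flt4, which are also found outside lymphatics, had log2 ratios of -0.11 and 0.81 by their leading probe sets and of -1 and -0.15 by their second ones, and of the 7 only Prox1 and Nts were below the floor on the old array. The part of these cells in the Foxp2 difference was not tested. In sorted bulk cells, fewer cells of a type and less RNA per cell cannot be told apart.

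Foxp1, a repressor that works with Foxp2 and Foxp4 in the developing lung and is also found in blood and endothelial cells, had the most probe sets. The leading one had 2021 on the old array and 4486 on the young, which is 2.22-fold lower on the old (log2 ratio -1.15). Of its 8 probe sets, all above the floor on at least 1 array, 5 were lower on the old array by 2-fold or more. The largest of these ratios was -1.69, from 748 on the old array and 2417 on the young. Another was at -0.86, with 553 on the old array and 1004 on the young. The remaining pair lay near the floor, with 124 and 74.3 on the old array against 75.6 and 73.4 on the young. The 6 brighter probe sets therefore shared a direction that these 2 did not, and the mean over all 8 was -0.82, under 2-fold.

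Foxp4, the third FoxP gene above the floor, had probe sets that disagreed. The leading one had 114 on the old array and 243 on the young (2.13-fold lower on the old, log2 ratio -1.09), and another had 7.95 on the old array, below the floor, and 166 on the young (at least 2.25-fold lower). The third had 120 on the old array and 111 on the young, a ratio near 1. All 3 signals on the old array were under 2 times the floor. Foxp4 was under 2-fold by the mean over probe sets (-0.72) and with an offset of 0.5 times the floor added to each signal (-0.89). Foxp3, the factor of regulatory T cells, was below the floor on both arrays with 47.0 on the old and 23.4 on the young. Of 8 regulatory T cell markers, Cd4, Il2ra, Ctla4 and Tnfrsf18 were below the floor on both arrays. The other 4, the T cell receptor genes Cd3e, Cd3d and Cd3g and the transcription factor gene Ikzf2, had positive ratios of 0.24 to 0.87, which are bounds for Cd3e, Cd3d and Cd3g, above the floor on the old array alone. With the floor at the 25th percentile 3 of the markers, and Foxp3 itself, were higher on the old array by 2-fold or more, as were 18.7% of all genes. The part of T cells in the Foxp3 value was not tested.

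**Figure D2:**
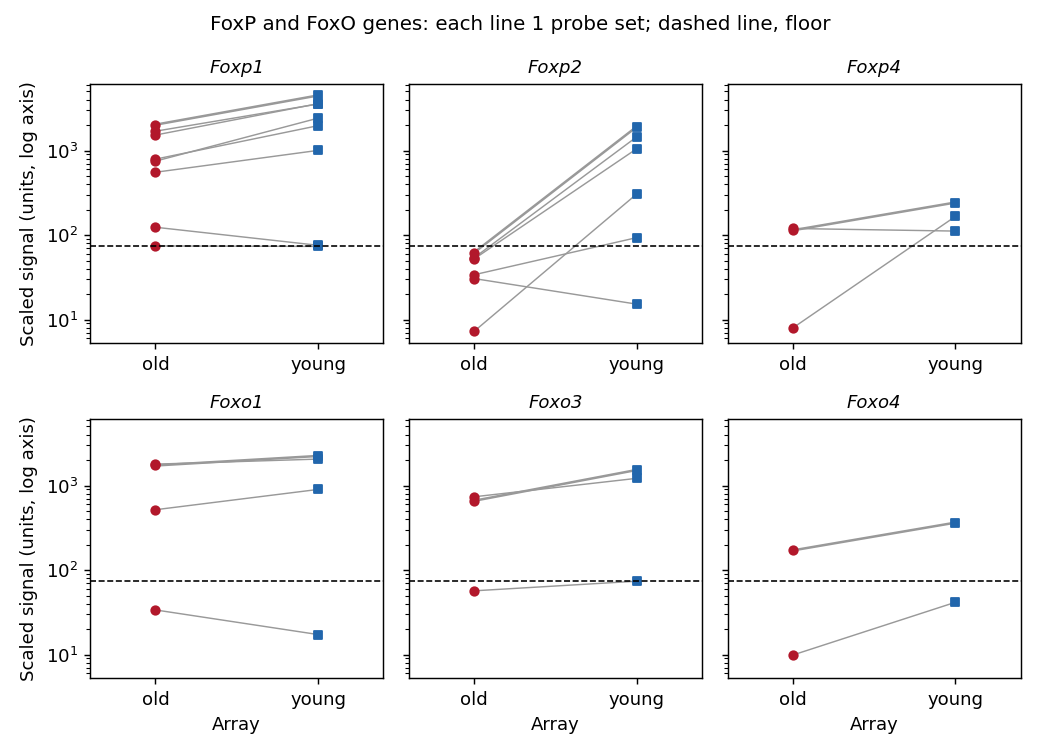
Scaled signal (log axis) of every probe set of the FoxP and FoxO genes with a gene above the floor, including probe sets below it, with 1 line per probe set from the old array (circle, left) to the young array (square, right) and the floor dashed. Of the 6 lines of Foxp2, all of which start below the floor on the old array, 4 run steeply up to the young, while the upper 3 lines of Foxo1 are flatter, at ratios of -0.80 to -0.20.

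The FoxO genes, whose proteins answer to insulin and growth factor signals, were all lower on the old array, 2 of 3 by 2-fold or more. Foxo3 had 661 on the old array and 1531 on the young (2.32-fold lower on the old, log2 ratio -1.21). A second Foxo3 probe set had 736 on the old array and 1218 on the young (-0.73). The third was at the floor, with 56.9 on the old array and 73.9 on the young. Both brighter probe sets thus had the same direction, but the mean over all 3 was -0.65, under 2-fold.

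Foxo4 had 171 on the old array and 364 on the young (2.13-fold lower on the old, log2 ratio -1.09), and was at -0.95 with the offset. Its other probe set was below the floor on both arrays. Foxo1, the FoxO gene best studied in endothelium, had 1728 on the old array and 2241 on the young (-0.38) by a leading probe set of the kind that can match several transcripts. Its 2 other measured probe sets had 1792 and 518 on the old array, against 2058 and 900 on the young (-0.20 and -0.80). All 3 were lower on the old array and all were under 2-fold.

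Of 15 measured genes of the insulin, PI3K and Akt list, which act on FoxO proteins, 2 were higher on the old array (13.3%) and 1 was lower (6.67%), shares near the 16.0% and 11.3% of all genes. Their median was 0.30, against 0.03 over all genes. Irs1, an adaptor of the insulin receptor, had 293 on the old array and 10.8 on the young (at least 3.98-fold higher on the old). Sgk1, a kinase of the Akt family, was 2.13-fold higher on the old array, and Skp2, which marks Foxo1 for degradation, was 2.17-fold lower. Sgk1 was under 2-fold on the values as deposited (0.96), with quantile normalization (0.38) and with loess (0.73), and Skp2 with the floor at the 75th percentile (-0.14). Akt1 had 3227 on the old array and 2747 on the young (0.23).

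Reported FoxO targets were spread over a wide range. Of 22 measured targets, 9 were higher on the old array by 2-fold or more (40.9%) and 2 were lower (9.09%). Over all genes the shares were 16.0% and 11.3%. The median of the targets was 0.58. Pdk4, a kinase that restrains glucose oxidation, had 3985 on the old array and 37.0 on the young (at least 54.1-fold higher on the old). Tnfsf10, a death ligand, had 2375 on the old array and 66.7 on the young (at least 32.2-fold higher). Klf2, a flow-induced endothelial factor, was 4.84-fold and Pik3ip1, an inhibitor of PI3K, 4.30-fold higher on the old array. On the other side were Sesn3, a stress-response gene, with 410 on the old array and 4553 on the young (11.1-fold lower on the old), and Angpt2, a vessel-destabilising ligand regulated by Foxo1 in endothelium, with 829 on the old array and 3844 on the young (4.64-fold lower). The cell cycle inhibitor gene Cdkn1b had a ratio of 0.54. Foxo3 and Foxo4 were both lower on the old array, while the share of lower targets was near that of all genes. The immediate early genes, 7 of 7, lay past 2-fold on the old side too (median 4.03), and their part in the target values was not tested.

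Among the target promoters, 4 of 24 held the full forkhead site TGTTTAC, which contains the core and on the other strand is read as GTAAACA, in the 250 bases before the start, against 3.17% of all 32851 promoters. They are shown because FoxO proteins are known to bind sites of this kind, with the site in capitals. They lie on the plus strand of GRCm38.p6 at chr3:96557816-96557862, chr4:134314906-134314952, chr2:128125791-128125837 and chr19:53329445-53329490, in that order, from RefSeq.
Txnip: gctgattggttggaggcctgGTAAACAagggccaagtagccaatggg
Trim63: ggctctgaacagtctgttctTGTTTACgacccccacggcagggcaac
Bcl2l11: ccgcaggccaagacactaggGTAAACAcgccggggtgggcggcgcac
Mxi1: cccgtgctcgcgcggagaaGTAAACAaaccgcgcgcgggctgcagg

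Within the list these 4 genes were chosen by their sequence, but the list itself was drawn up with earlier results of these data known. Txnip, which binds thioredoxin, had 14049 on the old array and 6566 on the young (2.14-fold higher on the old). Trim63, a ubiquitin ligase of muscle atrophy, had 298 on the old array and 8.26 on the young (at least 4.05-fold higher). Bcl2l11, a cell death gene, had 1216 on the old array and 425 on the young (2.86-fold higher, with another probe set at 0.02 in log2 ratio). Mxi1, a Myc antagonist, had 726 on the old array and 797 on the young (-0.13). Txnip was under 2-fold on the values as deposited (0.97), with quantile normalization (0.71) and with loess (0.85), and Bcl2l11 by the mean over probe sets (0.64). Trim63 was not above the floor at the 75th percentile. The count past 2-fold, 3 of 4, thus depended on the setting. It stands beside 9 of all 22 targets, these 3 among them, and 16.0% of all genes higher on the old array. The count is therefore no separate check on the targets.

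Foxm1, which drives genes of mitosis, had a leading probe set with nearly equal signals of 171 on the old array and 180 on the young (-0.08). A second had 32.3 on the old array, below the floor, and 143 on the young (at least 1.94-fold lower on the old). One more had 72.3 on the old array and 106 on the young (at least 1.44-fold lower), and is of the kind that can match several transcripts. The last was below the floor on both. The 2 bounds could only be negative, since these probe sets were above the floor on the young array alone. Only the leading probe set could take either sign, and the signals were low on both arrays.

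Reported Foxm1 targets were mostly lower on the old array, 13 of 16 by 2-fold or more (81.25%) against 1 higher (6.25%). Over all genes 11.3% were lower and 16.0% higher. The median log2 ratio of the targets was -2.29. Nek2, a centrosome kinase, had 68.7 on the old array and 626 on the young (at least 8.49-fold lower on the old), though its 3 probe sets ran from -3.09 to -0.16 in log2 ratio and their mean was -1.68. Kif20a, a kinesin of cell division, had 89.1 on the old array and 663 on the young (7.44-fold lower). The mitotic kinase gene Plk1 had 161 on the old array and 598 on the young (3.72-fold lower). The exception was Cenpa, a centromere histone, which was 2.27-fold higher on the old array and under 2-fold by the mean over its probe sets (0.96). With the floor at the 75th percentile 6 targets were lower on the old array, as were 7.68% of all genes, and the median of the targets was -0.82. Nek2, Kif20a and Plk1 were then within 2-fold, their signals on the old array being below that floor. Ccnb1 is not analysed here. Whether the share of dividing cells differed between the sorts was not tested.

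Foxm1 reaches such promoters largely through the cell cycle homology region, TTTGAA, which other proteins bind. That element, searched on both strands, stood in 6 of 16 target promoters (37.5%), against 16.0% of all promoters. The forkhead core stood in 2 of the 16 (12.5%), against 12.0% of all, and the full forkhead site in 0, against 3.17%. The stretches with the element in the pair of those 6 targets with the largest differences by their leading probe sets are shown, on the minus strand of GRCm38.p6 at chr4:118437344-118437381 and chr9:70421696-70421741, from RefSeq.
Cdc20: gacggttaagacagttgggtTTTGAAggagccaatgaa
Ccnb2: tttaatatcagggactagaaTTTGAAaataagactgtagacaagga

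Cdc20, an activator of chromosome separation, had 455 on the old array and 2993 on the young (6.58-fold lower on the old) by a probe set of the kind that can match several transcripts. By the mean over its probe sets Cdc20 was at -1.94, a smaller difference than that of the proliferation gene Mki67 (-2.46), so that its place here rests on this probe set. The cyclin gene Ccnb2 had 170 on the old array and 1119 on the young (6.57-fold lower). Both were chosen after their values were seen.

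**Figure D3:**
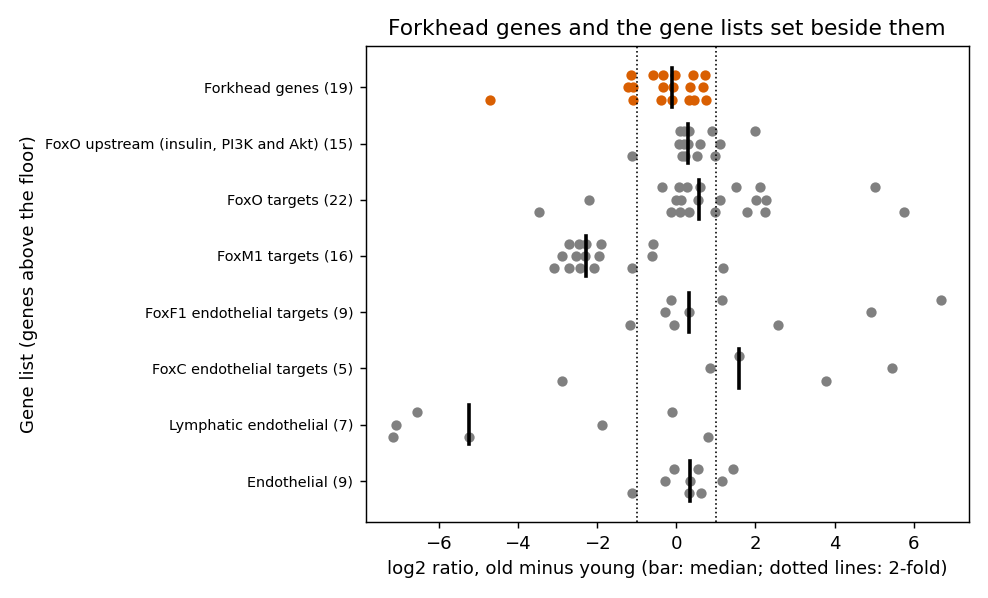
Log2 ratios (old minus young) of the 19 measured forkhead genes and of the members of 7 gene lists set beside them, with 1 point per gene, a bar at the median and dotted lines at 2-fold. Foxm1 targets and lymphatic markers lie mostly left of the dotted lines, while 14 of the 19 forkhead genes lie between the dotted lines, 4 just left of them and Foxp2 far to the left.

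Foxf1, Foxf2 and Foxc1, known for roles in vessels and stroma, were not past 2-fold by their leading probe sets, with a bound only for Foxf2. Foxf1, needed in mouse lung for capillary formation, had low signals of 101 on the old array and 152 on the young (-0.59), and its other probe set was below the floor on both. Foxf2, a gene of mural cells and fibroblasts, had 43.1 on the old array, below the floor, and 79.8 on the young (at least 1.08-fold lower on the old). Foxc1, which acts in arterial and lymphatic vessels, had 350 on the old array and 441 on the young (-0.33), and a second probe set with 133 on the old array and 286 on the young was 2.15-fold lower on the old. Foxd1 and Foxs1, also stromal genes, were below the floor on both arrays. Of 9 measured fibroblast and mural cell markers, 8 were higher on the old array by 2-fold or more (88.9%, against 16.0% of all genes). Pdgfra and Tcf21 were below the floor on both. The median of the 9 was 5.21, and the summed signal of the list was 45363 on the old array and 629 on the young. Across the alternative settings the median lay between 3.87 (mean over probe sets) and 5.42 (offset). It was 3.90 with the floor at the 75th percentile and 4.69 at the 25th. Of the 11 listed genes, 8 were below the floor on the young array, so any ratios given for these 8 are bounds. Acta2, with 15847 on the old array, had 2 measured probe sets that disagreed, one at 7.07 and the other at 0.67. The part of those cells in the values of Foxf1, Foxf2 and Foxc1 was not tested.

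Reported endothelial targets of Foxf1 and of FoxC factors were more often higher than lower on the old array. Of 9 Foxf1 targets, 4 were higher on the old array (44.4%) and 1 was lower (11.1%), against 16.0% and 11.3% of all genes. Their median was 0.33. Of the receptor genes, Kit was higher on the old array by at least 103-fold and Flt1 by 30.3-fold, with probe sets from 3.19 to 6.69 and from 2.75 to 4.92 in log2 ratio. By the mean over probe sets Kit was at 4.94 and Flt1 at 3.92. Kdr was 2.21-fold higher on the old array and S1pr1, the sphingosine phosphate receptor, 2.24-fold lower. With quantile normalization the median of these targets was -0.15, opposite in sign, and Kdr was under 2-fold there (0.61) and with loess (0.84). Pecam1 and Cdh5 had ratios of -0.04 and 0.33. Of 5 measured FoxC targets, 3 were higher on the old array (60%) and 1 was lower (20%), with a median of 1.59. The Notch receptor gene Notch4 was 43.7-fold higher on the old array and its ligand gene Dll4 13.8-fold. The integrin gene Itgb3 was 7.33-fold lower. The probe sets of Notch4 spread from 0.62 to 5.45 in log2 ratio, and those of Itgb3 from -2.87 to -0.23. The part of the make-up of each sort in these target values was not tested.

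The measured genes Foxj2, Foxj3, Foxk1, Foxk2, Foxn2 and Foxn3, which are widely expressed, were all within 2-fold. Foxj2 had 1032 on the old array and 626 on the young (0.72), and Foxj3 2280 on the old and 1814 on the young (0.33). Foxk1, a repressor of autophagy genes, had 800 on the old array and 811 on the young, and its ratio of -0.02 changed sign with the scaling (-0.15 to 0.05). Foxk2 had 954 on the old array and 753 on the young by its leading probe set (0.34), but 688 and 402 on the old array against 977 and 567 on the young by the next brightest (-0.51 and -0.50). Its direction was therefore not settled, and its mean was -0.14.

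Foxn3, a repressor linked to the DNA damage checkpoint, had 4 of 4 probe sets higher on the old array, all under 2-fold. They had 2320, 1951, 571 and 343 on the old array, against 1714, 1202, 398 and 226 on the young, with ratios of 0.44, 0.70, 0.52 and 0.60. Foxn2 had 1317 on the old array and 1657 on the young (-0.33), so the 2 measured FoxN genes had opposite signs, each under 2-fold.

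Foxd2, Foxq1 and Foxl2, all of low signal, lay on the other side of 0. Foxd2 had 124 on the old array and 6.02 on the young (at least 1.68-fold higher on the old), Foxq1 118 on the old and 59.6 on the young (at least 1.60-fold higher), and Foxl2, a gene of the ovary, 182 on the old and 135 on the young (0.43). For Foxd2 the ratio was 2.61 with the floor at the 25th percentile and 1.91 with the offset, both past 2-fold, and its other probe set was below the floor on both arrays.

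**Figure D4:**
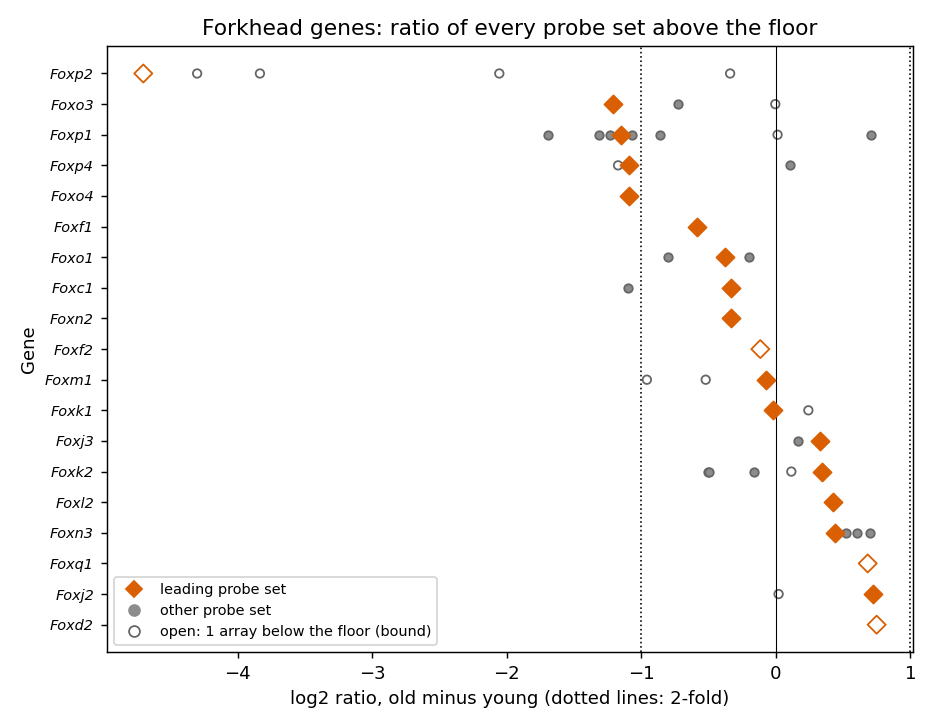
Log2 ratio (old minus young) of every probe set above the floor for the 19 measured forkhead genes, with diamonds for the leading and circles for other probe sets, open symbols where 1 array was below the floor and dotted lines at 2-fold. The probe sets of Foxp2 reach -4.70 and those of Foxn3 lie together at 0.44 to 0.70, while Foxp1, Foxp4, Foxk1 and Foxk2 have probe sets on both sides of 0.

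Among the 12 genes with 2 or more measured probe sets, 8 were of 1 sign throughout, and 7 genes had a single measured probe set. A probe set above the floor on 1 array alone has its sign set by that array, as in every measured one of Foxp2. The ratio of a gene varied between its probe sets with an SD of 0.42 over 4514 genes of the array, a spread that describes probes and not mice. Of the 19 ratios, 18 kept their sign on the values as deposited, with quantile normalization and with loess, and all 5 genes past 2-fold stayed past it under these 3 scalings. The deposited values and quantile normalization moved all 5 further toward the young side, so that the deposited values could not undo these calls. Loess moved Foxo3 and Foxo4 toward 0, to -1.16 and -1.05.

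The other 18 genes were below the floor on both arrays, with leading signals of 2.61 to 68.3 on the old array and 1.12 to 51.6 on the young. They were the liver and lung epithelial factors Foxa1, Foxa2 and Foxa3, the ciliated cell factor Foxj1, the thymic factor Foxn1, Foxp3, Foxb1, Foxb2, Foxd1, Foxd3, Foxd4, Foxe3, Foxh1, Foxi1, Foxl1, Foxn4, Foxs1 and Foxl2os. No ratio is given for them. With the floor at the 25th percentile, 30 forkhead genes were measured and 6 were higher on the old array by 2-fold or more, namely Foxa1, Foxa2, Foxb1, Foxd2, Foxh1 and Foxp3, and Foxn4 joined the 5 on the young side.

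The FoxA genes act in hepatocytes and lung epithelium, and no order can be read from their signals under the floor. Of 10 hepatocyte markers, 9 were higher on the old array (90%, against 16.0% of all genes). With the floor at the 75th percentile 4 were, against 12.5% of all genes. Their summed signal was 16546 on the old array and 765 on the young, and Alb had 8900 on the old array and 20.5 on the young. Of 6 measured lung epithelial markers, 3 were higher on the old array (50%, against 16.0% of all genes). Sftpa1, Sftpc, Scgb1a1, Nkx2-1 and Muc1 were below the floor on both. The 3 were Krt18, Krt8 and Cdh1, with 2605, 2268 and 294 on the old array. Krt18 and Krt8 held most of the list's summed signal of 5624 on the old array, against 284 on the young. Sftpb and Sftpd had 124 and 90.6 on the old array, against a floor of 73.7. The part of hepatocytes and lung epithelium in the FoxA values was not tested. Of 12 ciliated cell markers 9 were below the floor on both, as Foxj1 was.

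As for the sort as a whole, all 9 endothelial markers were above the floor on both arrays, 2 higher on the old and 1 lower (median 0.34). That median was -0.15 with quantile normalization and -0.04 by the mean over probe sets, so its sign was not settled. For leukocytes, 7 of 8 markers lay on the old side past 2-fold (median 3.88), or 5 with the floor at the 75th percentile (median 1.32), with Ptprc at 1403 on the old array and 0.84 on the young. Of 8 markers of liver sinusoidal endothelium, 7 were higher on the old array (median 5.70, summed signal 178181 on the old array and 12694 on the young). That median was 4.97 with the floor at the 75th percentile and 6.29 by the mean over probe sets. Mrc1 and Oit3 had 27542 and 17451 on the old array, against 42.0 and 29.7 on the young, below the floor. Beside these counts, 16.0% of all genes were higher on the old array by 2-fold or more and 11.3% were lower. With the floor at the 75th percentile the shares of all genes were 12.5% and 7.68%. The part of leukocytes and endothelial cell types in the forkhead values was not tested. Age and the make-up of each sort cannot be told apart with 1 array per age.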

How the data were processed

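The deposited intensity of each probe set is linear MAS5 signal, and GCOS 1.4 and MAS5 are the tools in the submitters' processing notes. With 2% trimmed from either tail, the mean intensity was 500.003 for both arrays. Detection calls and probe-level data were not used here, and no genome build is given in the sources used here. Of 45101 probe sets, 64 controls were left out. Gene symbols came from the platform annotation of 2016, in which 34958 probe sets had 1 symbol, 932 several and 9211 none. All 37 forkhead genes matched current RefSeq names by Entrez identifier, and 0 symbols changed.

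Signals were multiplied by 1.05 (old) and 0.956 (young), which brought the median log2 ratio to 0 over the probe sets that exceeded the floor on each array, against -0.13 as deposited. As floor served the higher of both arrays' medians, and the brightest probe set by mean log2 signal stood for its gene. Named were every forkhead gene and, of 15 lists, up to 2 members per direction past 2-fold, plus Cdkn1b, Klf2, Angpt2, Pik3ip1, Akt1, Ccnb1, Plk1, Kdr, Flt1, Pecam1, Cdh5, Alb, Sftpc, Ptprc and Prox1. Others named are list members at or below the floor, or were chosen by sequence or after their values were seen. The members and lists were chosen with earlier results of these data known. The lists share Irs2, Insr, Skp2, Kdr, Pecam1, Cdh5 and Tie1. Promoter stretches came from RefSeq. The procedure was tested on simulated data. Software was matplotlib 3.10.9, statsmodels 0.14.6, scipy 1.17.1, pandas 2.3.3 and numpy 2.4.6 under Python 3.11.15.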

Additional observations from a re-analysis of the deposited data

How the results depend on the processing

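No paired analysis was possible because each age has 1 array. Over 8 alternatives (values as deposited, quantile normalization, loess with a span of 0.4, floors at the 25th and 75th percentiles, the mean over probe sets, no _x_at or _s_at probe sets, and the offset of 0.5 times the floor), the count of forkhead genes lower on the old array by 2-fold or more was 3 with the higher floor, 2 by the mean over probe sets and 3 with the offset, and 5 or 6 under the others. The higher floor left 10 forkhead genes to count, without Foxo4 and Foxp4. The count higher on the old array was 6 with the lower floor, 1 with the offset (5.26%, against 17.7% of all genes) and 0 under the others. Foxp2 was past 2-fold under all 8, Foxo3 and Foxp1 under 7 of 8, Foxo4 under 6 of 7 and Foxp4 under 5 of 7. Of 143 ratios of single forkhead genes under the alternatives, 134 moved by less than the spread between probe sets, 9 by more, and 0 of the called ones changed sign. Many of these ratios could hardly move, so the count is no check. The deposited values shift every ratio by less than that spread, and another floor leaves unchanged any gene above both floors on each array. The mean changes nothing for the 7 genes with a single measured probe set, and dropping _x_at and _s_at probe sets changed Foxo1 alone. The median of all genes was 0.03, and -0.09 on the deposited values. Low signal limits the 9 forkhead genes above the floor that were not above the floor at the 75th percentile, Foxo4 and Foxp4 among them, and the size of the Foxp2 fold, which is a bound.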
